A study of Mus musculus with 12 samples.

Results

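Messenger RNA of 39 ribosome biogenesis factors was described in the livers of 12 mice on a high-fat diet (HFD). The factors were taken by gene symbol from the deposited table, where all 39 symbols were found among 23849. Each had a mean of at least 1 FPKM (fragments scaled to transcript length and to the mapped reads of the library, a level per length) over the 12 livers, so all 39 were among the 9806 genes tested. The mice were male, of C57BL/6J background and 8 weeks old by the series' design text, which does not say at which point of the study. All were fed HFD, for 6 weeks by the study's text. In 6 of them Policaptil Gel Retard, a product of soluble and insoluble fibers that the sample labels call Libramed, was given by gavage once a day over the last 2 weeks. The other 6 mice received the vehicle, which was drinking water. Livers were collected at ZT0, when the lights go on and the active phase of the mouse ends, or at ZT12, when they go off and it begins. Zeitgeber time (ZT) counts the hours since lights on, and each combination of treatment and time held 3 mice. The daily gavage came shortly before lights off, and no lean control livers are among the 12 samples.

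Ribosomes are built mainly in the nucleolus. RNA polymerase I transcribes a long precursor of the ribosomal RNAs, small nucleolar ribonucleoproteins (snoRNPs) modify it at defined bases, and assembly factors fold it, cut it and load ribosomal proteins onto it along separate paths for the small and the large subunit. Nearly all of these factors are made from ordinary messenger RNAs and act catalytically or for a short time, so they are not part of the finished ribosome. In liver, food intake and the circadian clock are both known to act on ribosome production. The 39 factors fall into 5 roles, namely 4 RNA polymerase I subunits, 8 snoRNP proteins, 10 small subunit and 14 large subunit assembly factors, and 3 nucleolar chaperones.

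In the GENCODE vM21 annotation of GRCm38, 6 of the 39 genes hold small nucleolar RNA (snoRNA) genes on their own strand, 19 in all. These hosts are Nop56 with 5 snoRNA genes, Nop58 with 4, Ncl, Gnl3 and Wdr43 with 3 each, and Dkc1 with 1. The share of hosts was 15.4% of the factors and 2.09% of the genes tested. The promoters of 34 of the 39 genes were found in RefSeq (GRCm38.p6), each read from 250 bases before to 50 bases after the start. The sequence CACGTG, the E-box to which both Myc with Max and the clock factors CLOCK and BMAL1 are known to bind, was found in 6 of the 34 (17.6%) and in 8.09% of all genes with a promoter in the table. CCGGAAG, a core to which ETS family factors bind, was found on either strand in 10 of the 34 (29.4%) and in 9.93% of all genes. The median GC content of the windows was 58% for the factors and 52.7% for all promoters. The dinucleotide CG, which CACGTG and CCGGAAG both contain, had a median count of 21 in the windows of the factors and 7 in all promoters. All genes with a promoter were the background, whether expressed in liver or not. The part of CG content and of expression in the shares of CACGTG and CCGGAAG was not tested. The palindromic core of the NRF1 site was in none of the 34 windows, against 1.07% of all genes. Such a match is a description of letters and no evidence of binding.

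For 6 of the 11 factors called higher at ZT12 over both treatments, 100 bases before the RefSeq start are shown, since these are the promoters next to the changes described here. A promoter was found for 8 of the 11. The windows of Wdr43 and Gtpbp4 are left out, because they overlap the gene as annotated in GENCODE, whose start differs. Capitals mark CACGTG and CCGGAAG. The Nop2 window holds both, with CACGTG beginning 60 bases and CCGGAAG 38 bases before the start, and in the Nolc1 window CCGGAAG begins 14 bases before it. Neither motif was found in the other windows.
Polr1a, chr6:71908953-71909052, + strand: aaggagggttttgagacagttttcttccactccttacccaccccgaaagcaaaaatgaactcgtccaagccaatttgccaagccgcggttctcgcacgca
Nop56, chr2:130274312-130274411, + strand: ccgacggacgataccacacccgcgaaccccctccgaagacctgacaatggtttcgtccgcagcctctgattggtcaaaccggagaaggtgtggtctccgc
Nolc1, chr19:46075747-46075846, + strand: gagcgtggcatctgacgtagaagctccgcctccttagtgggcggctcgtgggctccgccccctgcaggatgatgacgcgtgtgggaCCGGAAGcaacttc
Wdr75, chr1:45795066-45795165, + strand: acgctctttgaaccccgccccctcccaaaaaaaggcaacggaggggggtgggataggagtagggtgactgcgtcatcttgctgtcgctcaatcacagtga
Nop2, chr6:125131783-125131882, + strand: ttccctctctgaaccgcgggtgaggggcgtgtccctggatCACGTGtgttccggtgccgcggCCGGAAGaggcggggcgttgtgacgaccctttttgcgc
Ncl, chr1:86359456-86359555, - strand: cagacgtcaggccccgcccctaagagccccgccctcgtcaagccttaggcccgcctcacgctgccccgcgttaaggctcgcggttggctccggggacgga

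The E-boxes of the other 5 factors lay after the RefSeq start, at base 3 in Pes1, 18 in Wdr43, 29 in Ltv1, 38 in Utp20 and 41 in Mybbp1a. The sites of Wdr43, the only one of these 5 that was called, and of Pes1, whose level was almost equal at both times, are shown with the Nop2 site for comparison.
Nop2, chr6:125131813-125131838, + strand: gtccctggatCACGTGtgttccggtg
Wdr43, chr17:71616222-71616247, + strand: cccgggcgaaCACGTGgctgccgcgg
Pes1, chr11:3963967-3963992, + strand: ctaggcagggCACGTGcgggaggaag

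The factors were expressed at low to moderate levels. Nhp2, a protein of the snoRNPs that guide pseudouridylation, had the highest mean over the 12 livers at 32.8 FPKM. It was followed by the chaperone Npm1 at 22.9 FPKM and the large subunit factor Nop16 at 21.3 FPKM. The lowest were Rrp1b at 1.07 FPKM, just above the minimum for testing, the polymerase subunit Polr1e at 1.40 FPKM and the small subunit factor Utp20 at 2.02 FPKM. The median SD of a factor over the 3 mice of a group was between 0.114 and 0.164 on the log2(FPKM + 1) scale, and over all genes tested it was between 0.109 and 0.143. Read totals are not in the table, so the counting error behind a single value is unknown. Relative depth could be read from low values for 9 of the 12 libraries. There it ran from 0.707 to 1.27 of that of the first vehicle library at ZT0. It could not be read for any treated liver at ZT0, so the depth of that whole group is unknown. The sum of FPKM over all genes ran from 634683 to 759355. Of known clock genes, 7 of 8 that peak in the evening were called higher at ZT12, and of 4 that peak in the morning 3 were called lower and 1 higher. Of the hepatocyte markers Alb was listed at 0 in all 12 libraries, and the others were present.

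The question of the first comparison was how these factors differ between the end and the beginning of the active phase. Taken over both treatments, 32 of 39 factors were higher at ZT12 than at ZT0, and 11 passed the test, all in this direction. They were Rrs1, Rrp12, Nolc1, Gtpbp4, Ncl, Nop56, Polr1a, Npm1, Nop2, Wdr75 and Wdr43, with changes between 0.30 and 0.57 on the log2(FPKM + 1) scale, or 1.23 to 1.48 times. The test was limma on the 12 livers with treatment in the model, and a factor was called at an adjusted p under 0.05 over the 9806 genes. The share called higher was 28.2% of the factors and 15.9% of all genes, and the share called lower was 0% of the factors and 13.8% of all genes. Of all genes, 51.6% were higher at ZT12. The median change was 0.16 over the 39 factors and 0.01 over all genes. Fold changes are on the FPKM + 1 scale, which understates the change of low genes.

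**Figure D1:**
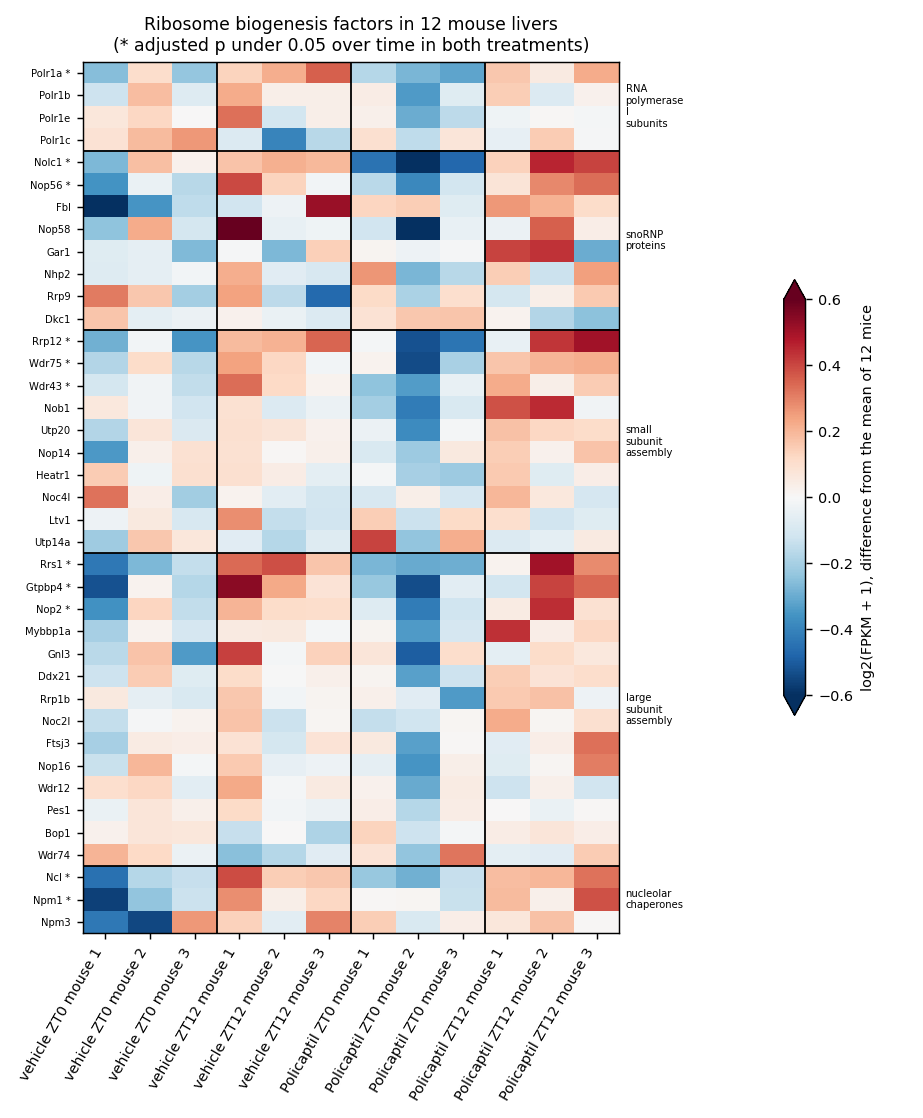
Level of each of the 39 factors in each of the 12 livers, as the difference of log2(FPKM + 1) from that factor's mean over all mice (color, cut at 0.6 either way), with rows grouped by role and columns by group of 3 mice. The rows with an asterisk, the 11 factors called over both treatments, are mostly blue in the ZT0 columns and red in the ZT12 columns, and Policaptil ZT0 mouse 2 is blue in most rows.

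In single tests, 6 of the 39 factors reached the smallest p that the exact permutation test within treatments allows, 0.005 (400 arrangements, two-sided). These were Polr1a, Nop56, Wdr43, Rrs1, Ncl and Npm1, the factors whose groups did not overlap in either treatment with ZT12 the higher, as in 9.75% of all genes. An unadjusted limma p under 0.05 with a higher level at ZT12 was found for 15 factors (38.5%) and for 21.7% of all genes. For 5 factors, Nop56, Wdr43, Rrs1, Ncl and Npm1, the 6 livers at ZT12 all stood above the 6 at ZT0 (12.8%, against 7.48% of all genes). In whole liver RNA, more cells of a type and more RNA per cell cannot be told apart.

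Among the RNA polymerase I subunits, Polr1a, which carries the catalytic center, rose and the others did not pass the test. Polr1a was at 2.96, 4.09 and 3.03 FPKM in the 3 vehicle livers at ZT0 and 4.19, 4.51 and 5.06 FPKM at ZT12. With Policaptil Gel Retard it was at 3.21, 2.92 and 2.80 FPKM at ZT0 and 4.29, 3.92 and 4.53 FPKM at ZT12. In both treatments the groups did not overlap, and the change over both was 0.38 ± 0.07 (SE, adjusted p = 0.00216). Polr1b, the partner of Polr1a in the core, was at 0.13 ± 0.08 (adjusted p = 0.268), and Polr1e at 0.08 ± 0.08 (adjusted p = 0.527). Polr1c, a subunit shared with RNA polymerase III, pointed the other way at -0.18 ± 0.09 (adjusted p = 0.159).

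Of the snoRNP proteins, Nolc1 and Nop56 rose. Nolc1, also named Nopp140, binds snoRNPs of both kinds and helps to assemble them. It was at 7.20, 10.2 and 9.07 FPKM in the 3 vehicle livers at ZT0 and 10.1, 10.4 and 10.3 FPKM at ZT12. With Policaptil Gel Retard it was at 6.27, 5.49 and 6.13 FPKM at ZT0 and 9.87, 12.6 and 12.1 FPKM at ZT12, so the treated groups did not overlap, whereas the vehicle groups did. Over both treatments the change was 0.53 ± 0.12 (adjusted p = 0.00614). Nop56, a core protein of the snoRNPs that guide ribose methylation, was at 4.21, 5.50 and 4.96 FPKM in the 3 vehicle livers at ZT0 and 7.80, 6.34 and 5.61 FPKM at ZT12. In treated livers it was at 4.98, 4.11 and 5.18 FPKM at ZT0 and 6.06, 7.17 and 7.42 FPKM at ZT12. The groups did not overlap in either treatment, and the change was 0.41 ± 0.09 (adjusted p = 0.00453). Idh3b overlaps Nop56 on the opposite strand. Whether strand was used in counting is not clear from the sources, so reads of the overlap could be assigned to either gene.

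The partners of Nop56 did not pass. Fbl, the methyltransferase of the same particles, was at 0.32 ± 0.12 (adjusted p = 0.0718) and Nop58 at 0.30 ± 0.14 (adjusted p = 0.136). Of the proteins of the pseudouridylation particles, Gar1 was at 0.14 ± 0.12 and Nhp2 at 0.11 ± 0.10. Dkc1, the pseudouridine synthase itself, had the lowest value of the snoRNP proteins, -0.17 ± 0.07 (unadjusted p = 0.035, adjusted p = 0.0932). Rrp9, a protein of the U3 particle that guides early cleavage, was at -0.10 ± 0.13.

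Among the 10 small subunit factors, Rrp12, Wdr75 and Wdr43 rose. Rrp12 acts in late assembly and export of the small subunit. It was at 1.76, 2.33 and 1.63 FPKM in the 3 vehicle livers at ZT0 and 2.83, 2.89 and 3.29 FPKM at ZT12. Treated livers held it at 2.34, 1.34 and 1.48 FPKM at ZT0 and 2.27, 3.53 and 3.77 FPKM at ZT12. The vehicle groups did not overlap, the treated groups did because of mouse 1 at each time, and the change over both was 0.54 ± 0.12 (adjusted p = 0.00425). Wdr43 and Wdr75 belong to a complex that joins the precursor RNA while it is transcribed. Wdr43 was at 4.77, 5.11 and 4.61 FPKM in the 3 vehicle livers at ZT0 and 6.84, 5.75 and 5.30 FPKM at ZT12. In treated livers it was at 4.25, 3.93 and 5.01 FPKM at ZT0 and 6.25, 5.37 and 5.90 FPKM at ZT12. It did not overlap between times in either treatment and changed by 0.30 ± 0.07 (adjusted p = 0.00768). Wdr75 was at 3.22, 4.14 and 3.24 FPKM in the 3 vehicle livers at ZT0 and 4.63, 4.20 and 3.71 FPKM at ZT12, where the groups overlapped, and with the product at 3.84, 2.28 and 3.16 FPKM at ZT0 and 4.34, 4.49 and 4.54 FPKM at ZT12, where they did not. Its change was 0.31 ± 0.10 (adjusted p = 0.0297), and leaving out any one of 7 livers took it above the threshold.

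The other 7 small subunit factors did not pass. Utp20, a scaffold of the early particle, was at 0.20 ± 0.08 (adjusted p = 0.0586), and Nob1, the nuclease that makes the final cut of the small subunit RNA, at 0.26 ± 0.11 (adjusted p = 0.0951). Nop14 was at 0.16 ± 0.08, Heatr1 at 0.07 ± 0.07, Noc4l at 0.00 ± 0.09, Ltv1 at -0.02 ± 0.08 and Utp14a at -0.13 ± 0.10.

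Of the 14 large subunit factors, Rrs1, Gtpbp4 and Nop2 rose. Rrs1 helps to place a small ribosomal RNA with its proteins in the early large subunit. It was at 7.49, 8.46 and 9.33 FPKM in the 3 vehicle livers at ZT0 and 13.5, 13.9 and 11.8 FPKM at ZT12. With the product it was at 8.45, 8.27 and 8.33 FPKM at ZT0 and 10.6, 15.2 and 12.9 FPKM at ZT12, with hardly any spread at ZT0. No liver at ZT12 was as low as any at ZT0, and the change was 0.57 ± 0.08 (adjusted p = 0.000319). Gtpbp4, a GTPase of the large subunit precursor, was at 6.64, 10.1 and 8.72 FPKM in the 3 vehicle livers at ZT0 and 15.0, 11.8 and 10.6 FPKM at ZT12. With the product it was at 8.37, 6.59 and 9.50 FPKM at ZT0 and 9.15, 13.5 and 12.9 FPKM at ZT12, where mouse 1 at ZT12 lay within the range of ZT0. Its change was 0.50 ± 0.13 (adjusted p = 0.0114). The annotation names 7 pseudogenes of Gtpbp4, so reads that match them equally well could be lost or misplaced. Pseudogenes were counted only where named after their gene, so copies of other factors under different names would be missed. Nop2, which methylates a cytosine of the large subunit RNA, was at 6.42, 9.45 and 7.64 FPKM in the 3 vehicle livers at ZT0 and 10.02, 9.30 and 9.26 FPKM at ZT12, and with the product at 8.04, 6.15 and 7.80 FPKM at ZT0 and 8.88, 11.97 and 9.18 FPKM at ZT12. Its vehicle groups overlapped and its treated groups did not, and the change was 0.33 ± 0.10 (adjusted p = 0.0238). It passed in 18 of 20 ways of processing the data, and without vehicle ZT0 mouse 1 or Policaptil ZT0 mouse 2 it did not.

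The remaining 11 large subunit factors did not pass, and 9 of them were higher at ZT12. Mybbp1a came closest at 0.23 ± 0.09 (adjusted p = 0.0573), and Gnl3, the GTPase called nucleostemin, was at 0.22 ± 0.12. The helicase Ddx21 was at 0.16 ± 0.07, Rrp1b at 0.16 ± 0.08, Noc2l at 0.13 ± 0.07, Ftsj3 at 0.12 ± 0.09 and Nop16 at 0.11 ± 0.10. Pes1, Bop1 and Wdr12 form 1 complex, and all 3 lay near 0, with Wdr12 at 0.02 ± 0.08, Pes1 at 0.01 ± 0.05 and Bop1 at -0.05 ± 0.06. Wdr74 was at -0.15 ± 0.09. It passed as lower, at -0.23, only when Policaptil ZT0 mouse 2 was left out (adjusted p = 0.0368).

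Of the nucleolar chaperones, nucleolin (Ncl) and nucleophosmin (Npm1) rose. Ncl was at 11.7, 14.4 and 14.8 FPKM in the 3 vehicle livers at ZT0 and 21.7, 18.2 and 18.4 FPKM at ZT12. Treated livers were at 13.8, 13.2 and 14.7 FPKM at ZT0 and 18.7, 18.9 and 20.7 FPKM at ZT12. The 2 times were apart in both treatments, and the change of 0.47 ± 0.07 had an adjusted p of 0.000376 in limma. Npm1 was at 15.0, 19.1 and 20.6 FPKM in the 3 vehicle livers at ZT0 and 27.7, 23.2 and 24.8 FPKM at ZT12. In treated livers the level was 22.8, 22.9 and 20.6 FPKM at ZT0 and 26.0, 23.1 and 29.8 FPKM at ZT12, where the groups were apart by less than 1 FPKM. Its change was 0.35 ± 0.09 (adjusted p = 0.0123). Npm3 was at 0.21 ± 0.13 (adjusted p = 0.257), with vehicle livers at ZT0 spread from 4.15 to 8.00 FPKM.

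**Figure D2:**
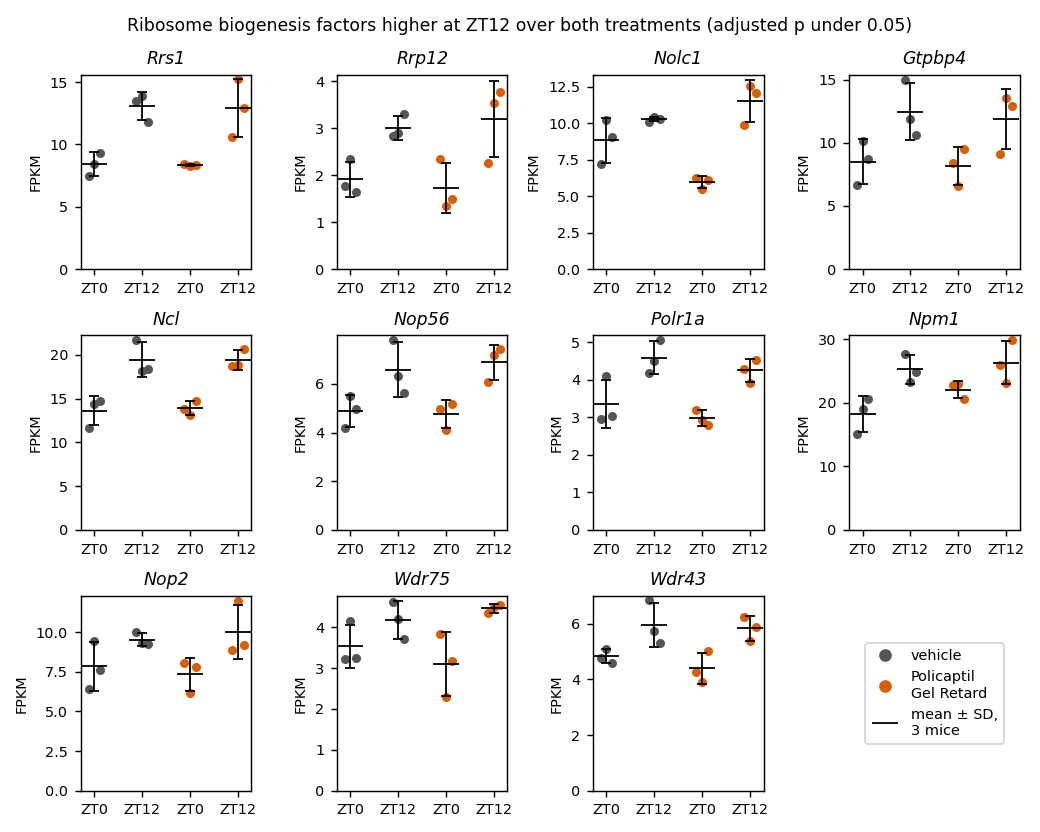
Level (FPKM, linear axis from 0) of the 11 factors called higher at ZT12 over both treatments, with 1 point per mouse and the mean ± SD of 3 mice as lines, vehicle in gray and Policaptil Gel Retard in orange. In all 11 panels the ZT12 mean lies above the ZT0 mean of the same treatment, and the 3 treated Nolc1 points at ZT0 lie below all other Nolc1 points.

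Each treatment was then taken on its own, in fits of 6 livers. In vehicle mice, 30 of 39 factors were higher at ZT12 (51.2% of all genes were) and 3 passed the test. These were Rrs1 at 0.58 ± 0.11 (adjusted p = 0.0215), Ncl at 0.49 ± 0.12 (adjusted p = 0.0467) and Rrp12 at 0.47 ± 0.12 (adjusted p = 0.0493). This is 7.69% of the factors, beside 5.62% of all genes called higher and 4.78% called lower. The median change was 0.09. At an unadjusted p under 0.05, 9 factors were higher (23.1%, against 14.4% of all genes) and 2 were lower (5.13%, against 13.0%). The 6 that were higher and did not pass the adjustment were Fbl at 0.51 ± 0.20, Gtpbp4 at 0.51 ± 0.17, Npm1 at 0.45 ± 0.13, Polr1a at 0.36 ± 0.12, Nop56 at 0.36 ± 0.14 and Wdr43 at 0.25 ± 0.10.

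The 2 that were lower in vehicle mice were Polr1c and Wdr74. Polr1c was at 20.9, 22.6 and 23.7 FPKM in the 3 vehicle livers at ZT0 and 18.5, 14.7 and 17.4 FPKM at ZT12, without overlap. Its difference of -0.39 ± 0.11 had an adjusted p of 0.0623 in limma on 6 livers, 0.0263 in the fit over all 12 and 0.0496 in Cyber-T on 6. Wdr74 was at 22.5, 21.1 and 18.9 FPKM in the 3 vehicle livers at ZT0 and 16.1, 17.1 and 18.4 FPKM at ZT12, also without overlap, with a difference of -0.26 ± 0.10 (adjusted p = 0.133). Groups did not overlap for 9 factors that were higher at ZT12 (23.1%, against 17.4% of all genes) and for 3 that were lower (7.69%, against 15.8%), the third being Bop1. With 3 mice against 3, the exact permutation test cannot go below 0.1. Leaving out vehicle ZT0 mouse 3 or any one of the 3 vehicle ZT12 mice left 0 factors called, and leaving out vehicle ZT0 mouse 1 left 1. Without vehicle ZT12 mouse 1 the median was 0.03, and without vehicle ZT0 mouse 2 it was 0.14.

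With Policaptil Gel Retard, 35 of 39 factors were higher at ZT12 (52.4% of all genes were) and 5 passed. Nolc1 led at 0.84 ± 0.11 (adjusted p = 0.00555), or 1.79 times on the FPKM + 1 scale. Its mean in treated livers was 5.96 FPKM at ZT0 and 11.5 FPKM at ZT12. Rrs1 was at 0.56 ± 0.13 (adjusted p = 0.0318), Ncl at 0.46 ± 0.08 (adjusted p = 0.0161), Nop56 at 0.45 ± 0.11 (adjusted p = 0.0425) and Polr1a at 0.40 ± 0.09 (adjusted p = 0.0295). This is 12.8% of the factors, beside 7.00% of all genes called higher and 5.36% called lower. The median change was 0.19. At an unadjusted p under 0.05, 14 factors were higher (35.9%, against 15.7% of all genes) and 1 was lower (2.56%, against 13.4%). The lower one was Dkc1, at 3.37, 3.60 and 3.61 FPKM at ZT0 and 3.17, 2.63 and 2.47 FPKM at ZT12 and a difference of -0.27 ± 0.10 (adjusted p = 0.111). The 9 that were higher and did not pass the adjustment were Rrp12 at 0.62, Nob1 at 0.51, Gtpbp4 at 0.49, Wdr75 at 0.43, Nop2 at 0.40, Wdr43 at 0.34, Mybbp1a at 0.34, Utp20 at 0.28 and Ddx21 at 0.26.

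Groups of treated livers did not overlap for 15 factors that were higher at ZT12 (38.5%, against 19.0% of all genes) and for 1 that was lower (2.56%, against 15.8%). Nolc1 passed in each of the 16 ways of processing, with changes from 0.78 to 0.94. The other 4 depended on single livers, and without Policaptil ZT0 mouse 1, Policaptil ZT0 mouse 2 or Policaptil ZT12 mouse 2, 1 factor was left as called. It was 2 without Policaptil ZT0 mouse 3 and 3 without Policaptil ZT12 mouse 3. Without Policaptil ZT0 mouse 2, the factors higher at ZT12 numbered 28 and the median was 0.16.

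Side by side, 29 factors were higher at ZT12 in both treatments (38.9% of all genes were) and 3 were lower in both. The changes in the 2 treatments, which share no mice, had a Pearson correlation of 0.62 across the 39 factors and 0.64 across all genes tested. Genes of 1 liver are not independent, so this is a description of these 12 livers.

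**Figure D3:**
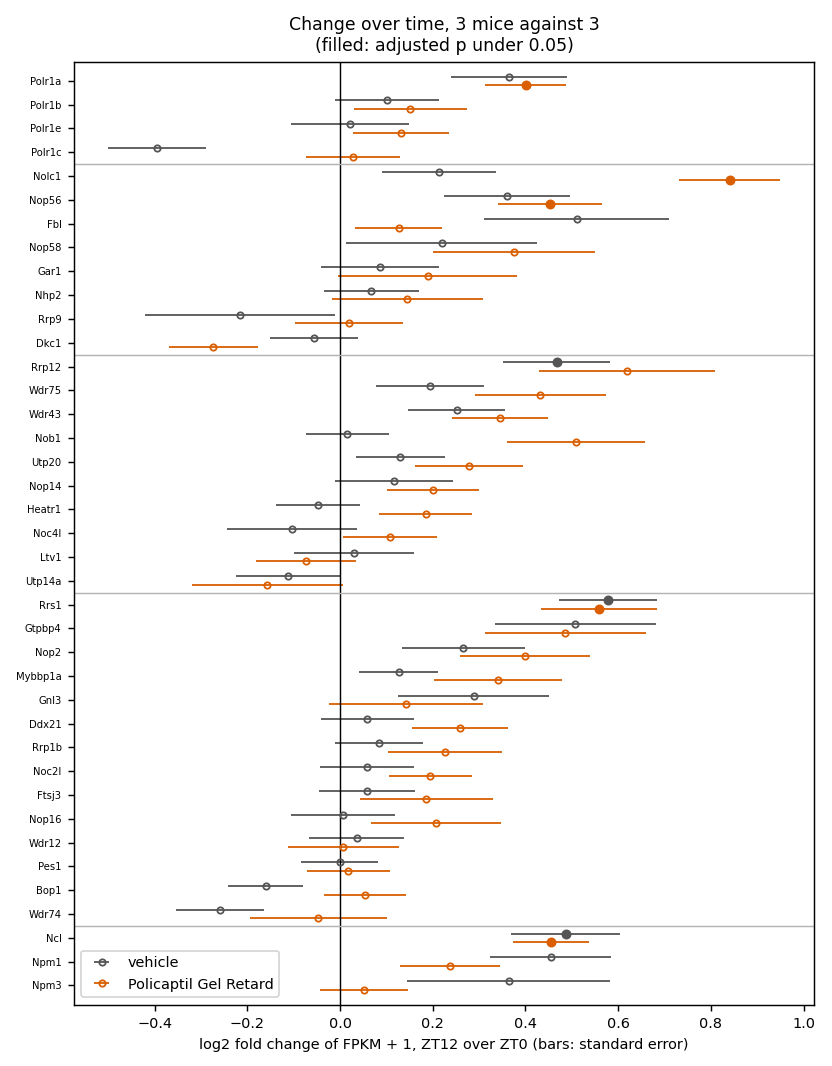
Difference between ZT12 and ZT0 on the log2(FPKM + 1) scale for each of the 39 factors, by role from polymerase subunits at the top to chaperones at the bottom, in vehicle (gray) and Policaptil Gel Retard (orange) mice. Points are the estimates from 3 mice against 3, bars their standard errors, and filled points have an adjusted p under 0.05. Most points lie right of 0, and the treated Nolc1 point lies farthest right, at 0.84.

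The next question was whether Policaptil Gel Retard shifted these factors at either time. At ZT0, 0 of 39 factors passed the adjusted test in limma, as did 0 of 9806 genes (0.00%), and Cyber-T, a test that the study names for its gene lists, also called 0 factors when its p was adjusted in the same way. At an unadjusted p under 0.05 there were 2 factors (9.23% of all genes). Nolc1 was lower in treated livers, at 5.96 ± 0.415 against 8.82 ± 1.52 FPKM (mean ± SD, n = 3), without overlap. Its difference of -0.49 ± 0.13 had an adjusted p of 0.436 in limma. Fbl was higher, at 8.24 ± 0.767 against 5.81 ± 1.16 FPKM, with a difference of 0.45 ± 0.14 (adjusted p = 0.482). Of the 39 factors, 9 were higher with the product (45.0% of all genes were), and the median difference was -0.06, beside -0.02 over all genes. Without Policaptil ZT0 mouse 2 these became 21 factors and 0.02, so the direction at ZT0 turned with that 1 liver. Without any other liver the median was between -0.12, without Policaptil ZT0 mouse 1, and -0.01, without vehicle ZT0 mouse 2.

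At ZT12, 0 of 39 factors and 0 of 9806 genes (0.00%) passed in limma, and 0 factors in Cyber-T. The 1 factor with an unadjusted p under 0.05 (6.74% of all genes) was Polr1c, higher in treated livers at 20.2 ± 1.56 against 16.9 ± 1.97 FPKM. Its difference was 0.25 ± 0.10 (adjusted p = 0.729 in limma). At the ends of the range stood Nob1 at 0.28 ± 0.14 (adjusted p = 0.729), and Wdr12 at -0.16 ± 0.10 (adjusted p = 0.756). With the product 26 factors were higher (45.6% of all genes were), and the median difference was 0.06, beside -0.01 over all genes. Without Policaptil ZT12 mouse 3 these became 20 factors and a median of 0.01. The median was 0.02 without vehicle ZT12 mouse 2, 0.03 without vehicle ZT12 mouse 3 and 0.10 without vehicle ZT12 mouse 1. Over both times, 0 factors passed in limma (0.0204% of all genes did) and 0 had an unadjusted p under 0.05 (10.1% of all genes). Here 20 factors were higher (43.1% of all genes), with values from -0.17 for Nolc1 to 0.26 for Fbl.

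**Figure D4:**
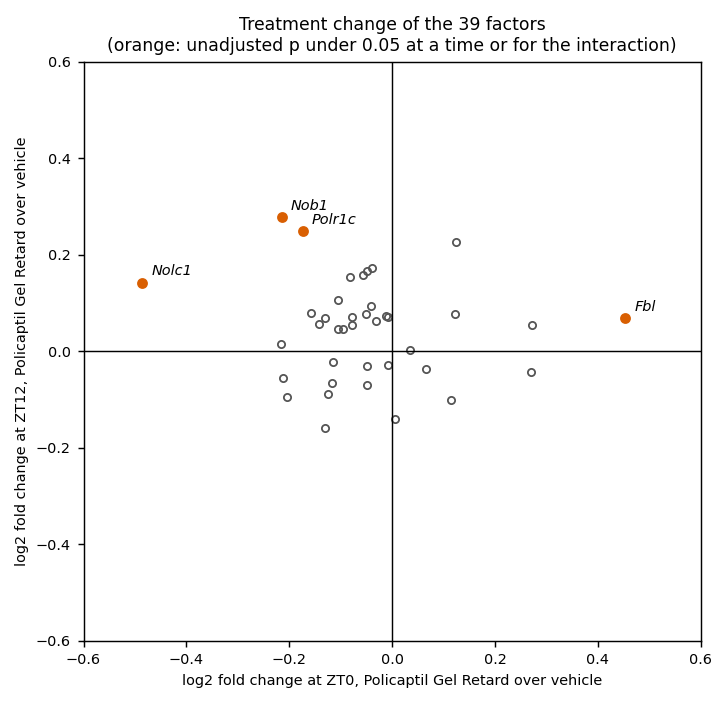
Difference between Policaptil Gel Retard and vehicle livers on the log2(FPKM + 1) scale at ZT0 (horizontal) and at ZT12 (vertical), with 1 point for each of the 39 factors. Orange points have an unadjusted p under 0.05 at a time or for the difference between times, and none passed the adjustment. Nolc1 lies farthest left at -0.49 and 0.14, and Fbl farthest right at 0.45 and 0.07.

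Whether the change over time differed between treatments was tested as the interaction in the 12 livers. The exact permutation p-values given here came from exchanging treatment labels within each time. They therefore also respond to a treatment difference at either time, and are not tests of the interaction alone. In limma 0 of 39 factors and 0 of 9806 genes (0.00%) passed the adjustment, and 3 factors had an unadjusted p under 0.05 (6.63% of all genes), all with a larger value in treated mice. Nolc1 had a difference of 0.63 ± 0.17 between the 2 changes (p = 0.00297, adjusted p = 0.519, exact permutation p = 0.02). Its level at ZT12 was 10.3 ± 0.170 FPKM in vehicle and 11.5 ± 1.45 FPKM in treated livers, and the treated livers at ZT0 were the lowest group. For Nob1 the difference was 0.49 ± 0.18 (adjusted p = 0.663, exact permutation p = 0.035). It was at 7.60, 7.11 and 6.61 FPKM in the 3 vehicle livers at ZT0 and 7.78, 6.76 and 7.03 FPKM at ZT12, which overlap, and with the product at 6.13, 5.15 and 6.72 FPKM at ZT0 and 9.73, 10.2 and 7.12 FPKM at ZT12, which do not. For Polr1c it was 0.42 ± 0.15 (adjusted p = 0.656, exact permutation p = 0.01). Treated livers held Polr1c at 21.1, 17.6 and 20.7 FPKM at ZT0 and 19.0, 21.9 and 19.6 FPKM at ZT12, with overlap. Fbl lay at the other end, at -0.38 ± 0.23 (adjusted p = 0.823). Of the 39 factors, 28 had a positive value (50.9% of all genes), with a median of 0.11, which was 0.03 without Policaptil ZT0 mouse 2. It was 0.06 without vehicle ZT0 mouse 2, 0.07 without vehicle ZT12 mouse 2, 0.17 without vehicle ZT12 mouse 1 and 0.19 without Policaptil ZT0 mouse 1.

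Policaptil ZT0 mouse 2 stood apart from the others of its group. It was the lowest of its 3 in 31 of the 39 factors, while it was the lowest in 40.3% of all genes. Its median factor lay 0.29 below the mean of all 12 livers on the log2 scale, and that of the other 2 treated livers at ZT0 at 0.02 and -0.06. Over all genes its median was -0.04. Vehicle ZT12 mouse 1 was the highest of its group in 29 factors, with a median of 0.16. Over both treatments and times, leaving out Policaptil ZT0 mouse 2 left 10 factors called higher, 1 (Wdr74) called lower and a median of 0.13.

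Cell markers also differed with treatment in part, although none passed the adjusted test in limma. Of 7 macrophage markers 4 had an unadjusted p under 0.05 at ZT0, all lower with the product, and their median difference was -0.47 at ZT0 and 0.03 at ZT12. The summed level of all 9 macrophage markers, tested or not, was between 57.1 and 64.9 FPKM in vehicle and between 35.7 and 56.6 FPKM in treated livers at ZT0. At ZT12 it was between 28.9 and 71.6 FPKM in vehicle and between 34.0 and 56.1 FPKM in treated livers. In the interaction 7 of the 7 macrophage markers tested had a positive value, with a median of 0.33, and 0 had an unadjusted p under 0.05. All 7 hepatocyte markers were higher with the product over both times, with a median of 0.16 and 2 at an unadjusted p under 0.05, and in the interaction 4 of 7 were positive, with a median of 0.28. The sums of hepatocyte markers were between 43400 and 49700 FPKM in vehicle and between 48400 and 59400 FPKM in treated livers over both times. Stellate and fibroblast markers were higher with the product at ZT0 in 7 of 7 cases, with a median of 0.21, and none had a positive interaction value. Over both times all 6 endothelial markers were higher with the product, with a median of 0.20, both neutrophil markers were higher, and all 4 biliary markers were lower, with a median of -0.15. The part of these markers in the treatment and interaction values of the factors was not tested.

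Other genes of the same processes were read from lists written by hand, 150 genes of which 145 were tested. Over both treatments, 16 of the 145 (11.0%) were called higher at ZT12, a smaller share than the 15.9% of all genes. Called lower were 5 of the 145, against 13.8% of all genes. Of the 145, 63.4% were higher at ZT12, against 51.6% of all genes, and the median change was 0.06. Among 12 other genes of the RNA polymerase I machinery, 3 were called higher, Cd3eap (0.33 ± 0.08, adjusted p = 0.0106), Polr1d (0.19 ± 0.05, adjusted p = 0.0132) and Taf1d (0.32 ± 0.10, adjusted p = 0.0369), and Znrd1, a small subunit of the enzyme, was called lower (-0.25 ± 0.08, adjusted p = 0.0273). None of 10 other snoRNP assembly genes was called in limma, and 3 of the 10 were higher at ZT12, with a median of -0.08. At an unadjusted p under 0.05 in limma, 1 was higher and 2 were lower, beside 4018 of 9806 genes in either direction. Of 50 other small subunit genes 5 were called higher, among them the kinase Riok2 (0.43 ± 0.05, adjusted p = 0.000117) and Wdr36 (0.33 ± 0.07, adjusted p = 0.00364), and 2 lower, Ngdn (-0.50 ± 0.11, adjusted p = 0.00519) and Emg1 (-0.26 ± 0.06, adjusted p = 0.00874). Of 48 other large subunit genes 7 were called higher, among them the export adaptor Nmd3 (0.41 ± 0.10, adjusted p = 0.00643) and the GTPase Gnl2 (0.30 ± 0.06, adjusted p = 0.00366), and 1 lower, Tex10 (-0.30 ± 0.06, adjusted p = 0.00192). Of 25 genes listed under the exosome and RNase MRP, which trim and cut ribosomal RNA, 1 was called higher and 1 lower. Xrn2, an exonuclease that is part of neither, was the higher one (0.18 ± 0.06, adjusted p = 0.0272). The lower one was Exosc3 (-0.28 ± 0.10, adjusted p = 0.0445).

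**Figure D5:**
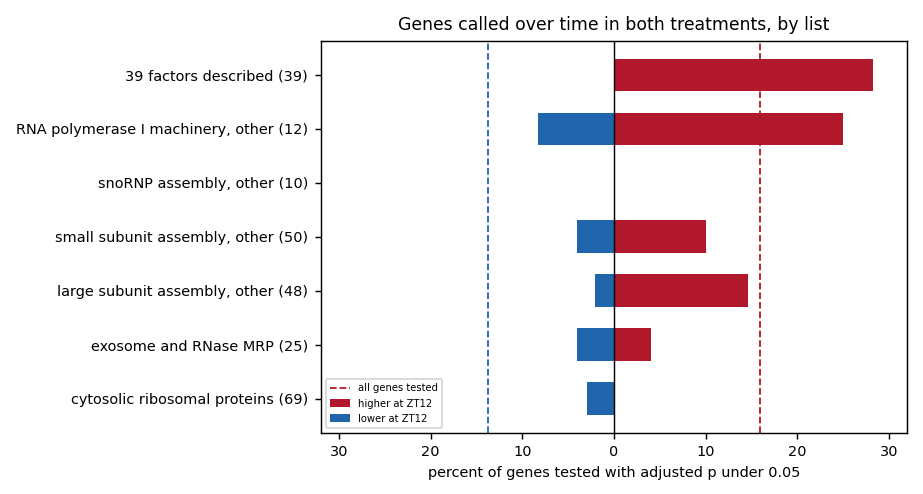
Percent of the genes tested that were called higher (red, to the right) or lower (blue, to the left) at ZT12 over both treatments, for the 39 factors, 5 lists of other biogenesis genes and the cytosolic ribosomal proteins, with the number of genes tested in brackets. Dashed lines mark the share over all genes, 15.9% higher and 13.8% lower. The bar of the 39 factors reaches 28.2%, that of the ribosomal proteins has no red part.

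Genes for the proteins of the ribosome itself did not share this direction. Of 69 cytosolic ribosomal protein genes tested (78 in the table), 16 were higher at ZT12, none was called higher and 2 were called lower, Rpl41 (-0.32 ± 0.08, adjusted p = 0.0106) and Rpl26 (-0.19 ± 0.06, adjusted p = 0.0361), with a median of -0.08. The summed level of all 78, tested or not, was between 11200 and 13900 FPKM in vehicle livers at ZT0 and between 11100 and 12300 at ZT12. With the product it was between 11000 and 13000 at ZT0 and between 10500 and 12400 at ZT12, so the ranges overlapped. These genes have many processed copies in the genome, and their values are uncertain. Of 10 tested genes of the Myc and Max network, 5 were higher at ZT12. Called higher were Mycl (0.60 ± 0.12, adjusted p = 0.00319) and Mxi1 (0.26 ± 0.06, adjusted p = 0.00904). Mxd4 was called lower (-0.22 ± 0.07, adjusted p = 0.0305). Of all genes, 15.9% were called higher and 13.8% lower. Myc with Max is known to drive ribosome production, whereas Mxi1 and Mxd4 belong to a family that opposes Myc. Of 16 cell cycle genes 5 were high enough to test, and of these only Rrm2, a subunit of ribonucleotide reductase, was called higher (1.29 ± 0.11, adjusted p = 7.51e-06).

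Markers of some other liver cells were lower at ZT12, the opposite direction to the factors. All 6 endothelial markers tested were called lower over both treatments. The summed level of all 8 endothelial markers, tested or not, was between 36.7 and 46.2 FPKM in vehicle livers at ZT0 and between 20.5 and 29.9 at ZT12. With the product it was between 43.4 and 54.1 FPKM at ZT0 and between 29.0 and 31.6 at ZT12. Stellate and fibroblast markers were called lower in 5 of 7 cases. Among hepatocyte markers 1 of 7 was called higher, Cyp2e1, and none lower. Of 7 macrophage markers Lyz2 was called lower, and of 4 biliary markers Sox9. None of the 2 neutrophil markers or the 1 lymphocyte marker tested was called in limma, where 0 had an unadjusted p under 0.05. The part of the cell makeup in the differences of the factors was not tested.

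The factors that host snoRNAs had a median change of 0.30 over time against 0.14 for the other 33, and 3 of the 6, Ncl, Nop56 and Wdr43, were among the 11 called. The snoRNAs themselves were not analysed here. Of the 8 called factors with a promoter in the table, CACGTG was found in 2, Nop2 and Wdr43, and CCGGAAG in 2, Nop2 and Nolc1. The other 4 factors with CACGTG were Utp20 at 0.20 ± 0.08, Mybbp1a at 0.23 ± 0.09, Pes1 at 0.01 ± 0.05 and Ltv1 at -0.02 ± 0.08, so factors with this sequence were found both among the higher values and near 0.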

How the data were processed

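Liver RNA of 12 mice was sequenced after poly(A) selection. The authors deposited FPKM per gene for each liver, without raw counts. The methods name ELAND, unique matches to mm10 and UCSC splice junctions, a stranded kit and RPKM, whereas the processing notes name TopHat, Cuffnorm and GRCm38 (mm10) and the labels an earlier kit, so the source of the values and the use of strand are not settled. Of 24138 lines, 289 repeated a symbol, and the line of highest mean was kept (23849 symbols, 6783 at 0 throughout). Columns were assigned to groups by their labels. The 9806 symbols with a mean of at least 1 FPKM were tested on log2(FPKM + 1) with limma 3.58.1 in R 4.3.3, two-sided, with trended variances and Benjamini-Hochberg adjustment over all of them. Pairwise comparisons used 6 livers, and the others all 12. Single factors also received exact permutation tests. The code was tested on simulated data. FPKM hide read depth, so no counting interval is given, and p-values cover the spread between 3 mice per group. The factors and lists were chosen with earlier results of these data known. Values are named for factors called in any comparison, at the extremes of level or change, or at an unadjusted p under 0.05, and the rest are given in short. Alternatives were the pseudocount (0.1), the minimum (none or 5 FPKM), no trend, median-ratio or quantile scaling, a replicate block, a fit over all 12 livers, Cyber-T and leaving out each liver. The sequences are those of RefSeq (GRCm38.p6).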

Additional observations from a re-analysis of the deposited data

Results flagged for a closer look

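In 3 factors the change from ZT0 to ZT12 differed between treatments at an unadjusted p under 0.05, by the interaction in limma over 12 livers. The change with Policaptil Gel Retard minus that with vehicle was 0.63 on the log2(FPKM + 1) scale for Nolc1 (0.6281), 0.49 for Nob1 (0.4936) and 0.42 for Polr1c (0.4225). None passed the adjustment over 9806 genes (adjusted p = 0.519, 0.663 and 0.656). Vehicle livers showed hardly any change of Nob1 and a lower Polr1c at ZT12, and treated livers a higher Nob1 and nearly equal Polr1c. The cause was not tested.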

How the results depend on the processing

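Over 7 comparisons, no called value turned its direction, although the median treatment differences at ZT0 and over both times, for which there is no test, passed through 0 when 1 liver was left out. In all, 456 alternative values stayed on their side of the threshold, while 60 lost and 3 gained significance. Over both treatments 11 factors were called over time, and each alternative stayed within 1.5 times of this count (9 to 14 when 1 liver was left out). In vehicle mice the 3 calls became 0 with no minimum FPKM, 0 with the replicate block, 5 in the fit over all 12 livers (4 higher, 1 lower) and 7 in Cyber-T (6 higher, 1 lower), with 0 to 3 when 1 liver was left out. In treated mice the 5 calls became 2 with no minimum, 2 with the block, 8 in the 12-liver fit and 10 in Cyber-T, all higher at ZT12, with 1 to 6 when 1 liver was left out. The lower factor in vehicle mice was Polr1c both times. More genes were tested with no minimum, and the other causes were not tested. For treatment, the count at an unadjusted p under 0.05 was 2 at ZT0 (1 to 4 when 1 liver was left out). At ZT12 it was 1, and 0 with a minimum of 5 FPKM, without the trend, with quantile scaling, with the block or in Cyber-T, and 2 in the 12-liver fit (0 to 2). Over both times it was 0, and 1 with median-ratio or quantile scaling (0 to 2). For the interaction it was 3 (3 to 5). Cyber-T called 69 genes at ZT0 and 23 at ZT12, none of them a factor. A minimum of 5 FPKM left 29 factors. Replicate numbers are shared between groups, and deviations of same-numbered livers correlated between -0.279 and 0.257. Deviations from means of 3 livers cannot show whether the numbers pair the livers, and the main fits did not use the numbers. With the block 11 factors were called over both treatments. Median-ratio scaling moved the median of all genes by at most 0.0172. Without any 1 liver the median change of the factors was 0.0318 to 0.143 in vehicle mice, 0.161 to 0.251 in treated mice and 0.127 to 0.182 over both. The median treatment difference was -0.123 to 0.0174 at ZT0, 0.0118 to 0.0989 at ZT12 and -0.0248 to 0.041 over both, and that of the interaction 0.0266 to 0.19. Read totals are unknown, so how far depth limits the low factors cannot be stated.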
